A study of Mus musculus with 13 samples.

Results

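The comparison described here is that of knee cartilage DNA from Tet1 mutant mice after joint surgery with cartilage DNA from wild-type mice after a sham operation. Its members are all 72486 regions of the table that the submitters deposited for this pair of groups, out of 181833 rows in the 3 comparison tables of the series. The signal is 5-hydroxymethylcytosine (5hmC) at CCGG sites, read by reduced representation hydroxymethylation profiling: DNA is cut with MspI, a glucosyltransferase protects sites that carry 5hmC, a second cut removes unprotected sites, and the surviving fragments are counted. All mice are labelled as males of the B6;129S4 strain sampled 6 weeks after surgery, a label that 1 sham library goes against (below); the protocol gives their age at surgery as 4 to 6 months and the design text as 3 to 4 months. The MUT DMM group carries the genotype TET-/- and had DMM surgery, an operation on the medial meniscus done to bring on osteoarthritis. The WT sham group is TET1+/+ and had the knee joint opened only, on the leg opposite the operated one. The mutant allele is not described in the sources used here. Since both genotype and surgery differ, and mutant sham libraries were not analysed here, the 2 factors cannot be told apart in any value below.

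TET1, TET2 and TET3 are dioxygenases that oxidise 5-methylcytosine to 5hmC, the first step of active DNA demethylation. In most tissues 5hmC lies over gene bodies and enhancers of genes in use, and little is found at unmethylated CpG-rich promoters. Adult articular cartilage is built almost wholly by one cell type, the chondrocyte, which holds a matrix of type II collagen and aggrecan. In osteoarthritis this matrix is lost and some chondrocytes take on features of hypertrophic growth plate cells.

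The promoters below are examples picked from the called regions at gene starts, and they do not stand for all promoters. Each is a window of 300 bases, from 250 before to 50 after a start site, taken from RefSeq (GRCm38.p6, the mm10 build of the files), printed 5' to 3' on the gene's strand with each CCGG, the only site MspI cuts, in capitals. Abcc10 (a membrane transporter) and Tpcn2 (a lysosomal cation channel) lay under regions that were higher in the mutant. Ttc8 (a Bardet-Biedl syndrome protein of the primary cilium), Dcpp3 and Eng (endoglin, a TGF-beta co-receptor) lay under regions that were lower.
Abcc10, chr17:46327974-46328273, minus strand: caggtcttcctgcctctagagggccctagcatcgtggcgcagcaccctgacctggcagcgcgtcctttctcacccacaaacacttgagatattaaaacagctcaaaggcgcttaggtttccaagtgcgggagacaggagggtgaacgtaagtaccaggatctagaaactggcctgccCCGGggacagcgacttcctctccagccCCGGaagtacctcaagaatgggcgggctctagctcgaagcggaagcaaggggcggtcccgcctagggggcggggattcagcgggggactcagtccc
Tpcn2, chr7:145283962-145284261, minus strand: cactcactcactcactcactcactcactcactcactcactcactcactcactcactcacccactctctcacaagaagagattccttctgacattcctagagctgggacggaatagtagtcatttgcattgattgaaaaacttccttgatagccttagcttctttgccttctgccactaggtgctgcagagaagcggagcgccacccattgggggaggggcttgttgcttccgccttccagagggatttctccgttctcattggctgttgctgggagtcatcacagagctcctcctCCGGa
Ttc8, chr12:98920324-98920623, plus strand: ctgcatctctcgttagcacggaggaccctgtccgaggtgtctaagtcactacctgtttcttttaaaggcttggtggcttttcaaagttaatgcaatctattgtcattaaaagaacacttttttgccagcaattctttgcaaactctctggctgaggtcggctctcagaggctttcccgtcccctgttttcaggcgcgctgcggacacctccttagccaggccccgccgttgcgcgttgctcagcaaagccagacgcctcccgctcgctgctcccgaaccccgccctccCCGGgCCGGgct
Dcpp3, chr17:23917208-23917507, plus strand: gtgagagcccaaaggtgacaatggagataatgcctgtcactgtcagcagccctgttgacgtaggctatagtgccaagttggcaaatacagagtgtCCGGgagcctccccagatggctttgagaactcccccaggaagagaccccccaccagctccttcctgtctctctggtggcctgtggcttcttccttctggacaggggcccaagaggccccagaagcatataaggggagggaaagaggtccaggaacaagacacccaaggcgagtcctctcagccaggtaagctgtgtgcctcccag
Eng, chr2:32646345-32646644, plus strand: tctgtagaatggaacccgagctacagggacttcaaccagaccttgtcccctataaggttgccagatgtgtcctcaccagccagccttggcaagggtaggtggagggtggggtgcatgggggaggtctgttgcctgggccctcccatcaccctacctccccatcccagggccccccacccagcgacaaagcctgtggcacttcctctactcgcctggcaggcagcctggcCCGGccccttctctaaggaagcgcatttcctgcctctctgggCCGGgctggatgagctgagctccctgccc
Abcc10, Ttc8 and Eng hold 2 CCGG sites each, and Tpcn2 and Dcpp3 hold 1. In Ttc8 and Eng these sites lie beyond the end of the region whose counts are given below. In the other promoters they lie inside it. Abcc10 has 17 CG pairs in its window and Ttc8 has 19, whereas Dcpp3 has 3 and both Tpcn2 and Eng have 6. In normalized counts, the Abcc10 region (chr17:46328021-46328260) read 28.7 and 75.6 in the mutant libraries and 6.89, 9.26 and 18.6 in the sham libraries. The Ttc8 region (chr12:98920361-98920560) read 0 in both mutant libraries and 9.54, 12.7 and 20.8 in the sham libraries. The Eng region (chr2:32646341-32646560) likewise read 0 in both, against 7.42, 11.6 and 3.88. The libraries of the 2 groups did not overlap at any of these 5 picked regions. Of all called regions over promoters, 635 of the 771 higher and 344 of the 404 lower ones showed no overlap. limma's Benjamini-Hochberg adjusted p was 0.0465 for Abcc10, 0.00334 for Ttc8, 0.00704 for Dcpp3 and 0.00617 for Eng, while Tpcn2 missed the threshold at 0.102; without the third-listed sham library Abcc10 also missed it, at 0.0597.

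The libraries behind these values were of very unequal depth, and 2 sham libraries stood apart. Of the 3 entries deposited for MUT DMM, 2 were identical in every region and were counted as 1 library, which left 2 distinct mutant libraries against 3 sham libraries. The values are whole multiples of a step that differs by library, so the reads could be recovered: 3422008 and 302082 in the deeper and the shallower mutant library, and 4720344, 2136912 and 7860851 in the first-, second- and third-listed sham libraries. One read was worth 9.45 normalized counts in the shallower mutant library and from 0.277 to 1.16 in the other 4. A count of 0 in the shallower library therefore allows a level of up to 28.3 (3 reads), and 81.6% of the lower regions had a sham mean under that level, whereas in the deeper library a 0 allows only 2.21. The third-listed sham library went against its male label. It had 0 reads at the called regions of Usp9y and Ddx3y, single-copy genes of chromosome Y, which allows up to 0.832 normalized counts, where the other 4 libraries summed to between 13.9 and 37.8 for each gene. In the first-listed sham library 1341 called regions exceeded 20 normalized counts and 5 times the sham median plus 1, against 35 in the second and 5 in the third.

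The lower side was the larger. As deposited, 71974 of the 72486 listed regions (99.3%) passed the authors' adjusted p of 0.05 and are termed called. That p was deposited beside all 3 MUT DMM entries and was not recomputed with the repeated entry counted once. By means with the repeated library counted once, 31284 of the called regions were higher in MUT DMM (43.2% of those listed) and 40690 were lower (56.1%). The table lists only regions that had already passed a window test, so these shares describe a selected set and not the genome. Higher regions had a median of 42.7 normalized counts in the mutant and 19.2 in the sham, a median difference of 1.23 on the log2 scale with a pseudocount of 1. Lower regions had medians of 0.735 and 10.04, a median difference of -2.55. The mutant libraries lay beyond all 3 sham libraries in 23534 of the higher regions (75.2%) and in 35584 of the lower ones (87.5%). Under median ratio scaling the higher count was 11101. The shallower mutant library was at 0 in 75.6% of the lower regions, where its depth limits what non-overlap can show. With 2 libraries against 3, an exact permutation test of a single region cannot give a one-sided p below 0.1. limma, which pools the spread over all listed regions, found 5934 higher (8.19%) and 28276 lower (39%) at an adjusted p of 0.05. The higher count rested on few libraries: it was 1082 without the second-listed sham library, 1180 without the third and 2108 without the first, and 3597 under median ratio scaling. Without the deeper mutant library it was 20545, but that fit has 1 mutant library, which is assumed to vary like the sham libraries. These limma calls come from the authors' own selection and are no separate check of it.

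Most lower regions were close to unread in the mutant. Both mutant libraries were at 0 in 15289 of them (37.6% of the lower), only the shallower was at 0 in 15466, and both held reads in 9806. Behind the median lower region stood 1 read in the deeper and 0 in the shallower mutant library, against 16, 10 and 32 reads in the sham libraries. Behind the median higher region stood 46 and 5 reads in the mutant and 39, 16 and 48 in the sham. Of the regions that limma called lower, 96.2% had no read in the shallower library. Where both mutant libraries were at 0, limma takes them as equal, with no spread between them. A 0 in the shallower library allows up to 28.3 normalized counts. The limma p values at such regions, as in Ttc8, Eng, Alpl and Igf1r and beside Tet1, therefore rest mainly on the deeper library.

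**Figure D1:**
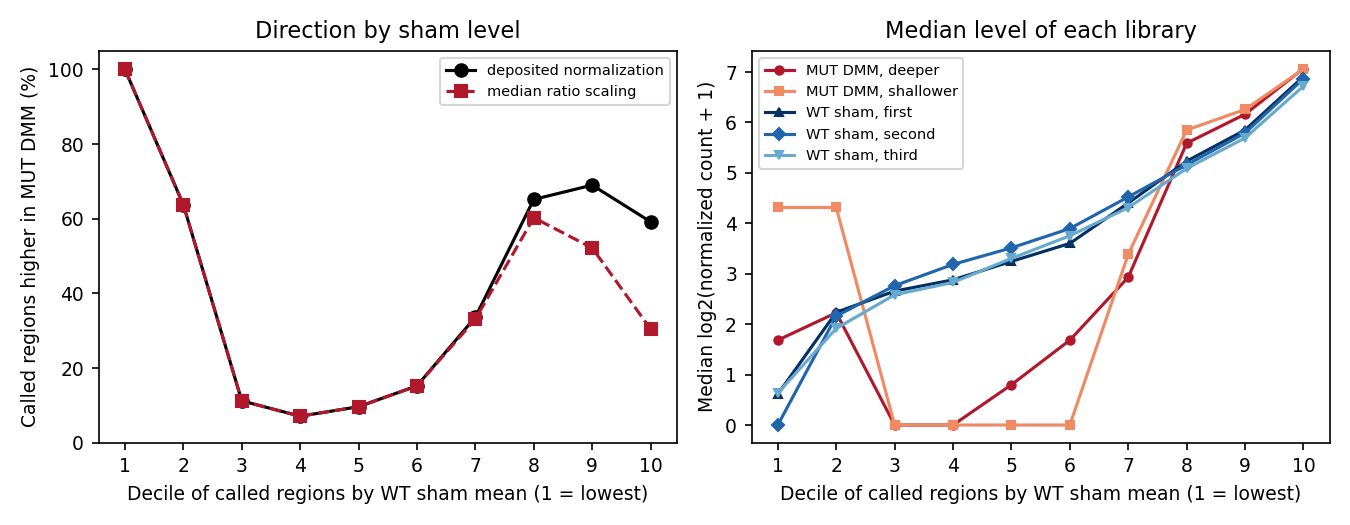
Left, share of called regions that were higher in MUT DMM (vertical axis, percent) in each decile class of the called regions ordered by their WT sham mean (horizontal axis), with the deposited normalization and after median ratio scaling. Right, median log2(normalized count + 1) of each library in the same classes. The share was 100% in the lowest class, 7.13% in the fourth and 69.0% in the ninth, and the mutant medians were at 0 where the sham level was low but not lowest.

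The direction went with the level in the sham group, when the called regions were ordered by their sham mean and cut into 10 decile classes. The order uses the sham values that also set the direction, so it is a description with no test. Where the sham mean was between 6.44 and 8.06, in the fourth class, 7.13% were higher in the mutant. Above a sham mean of 27.3 most regions were higher, 65.2%, 69.0% and 59.2% in the top 3 classes. In the lowest class, with sham means of up to 1.76, all 7199 were higher. Rescaling the libraries by median ratios took the shares of the top 3 classes to 60.3%, 52.2% and 30.5% and left the other classes within 1 percentage point of their shares. The same scaling moved the median log2 difference of all listed regions from -0.96 to -1.52, a shift of -0.57, and the share of higher regions from 43.5% to 38.4% of those called. All lower regions stayed lower under it, and 88.3% of the higher ones stayed higher.

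Chromosomes X and Y stood at the 2 ends of the range. On chromosome Y 1940 of 2067 called regions were higher in the mutant (93.9%), and on X 707 of 2665 (26.5%). The autosomes ran from 36.3% on chromosome 11 and 38.5% on chromosome 17 to 48.5% on chromosome 14 and 50.9% on chromosome 3, around a share of 42.6%. The third-listed sham library moved with both extremes: chromosome Y held 1.29% of its normalized counts against 5.03% to 6.86% in the other 4 libraries, and X held 5.29% against 3.21% to 3.82%. Without that library the share of higher regions was 92.9% on Y and 28.2% on X, and the called regions of Y had medians of 36.1 and 37.8 in the mutant against 25.5 and 22 in the first- and second-listed sham libraries. limma called 259 regions of Y higher with the third-listed sham library and 33 without it. Its higher calls fell over all listed regions too, from 5934 to 1180, when that library was left out. Under median ratio scaling the share of chromosome 3 dropped to 44.5%, so that lower regions were the more frequent there too. Much of chromosome Y is made of near-identical copies, among which short reads cannot be placed with certainty.

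**Figure D2:**
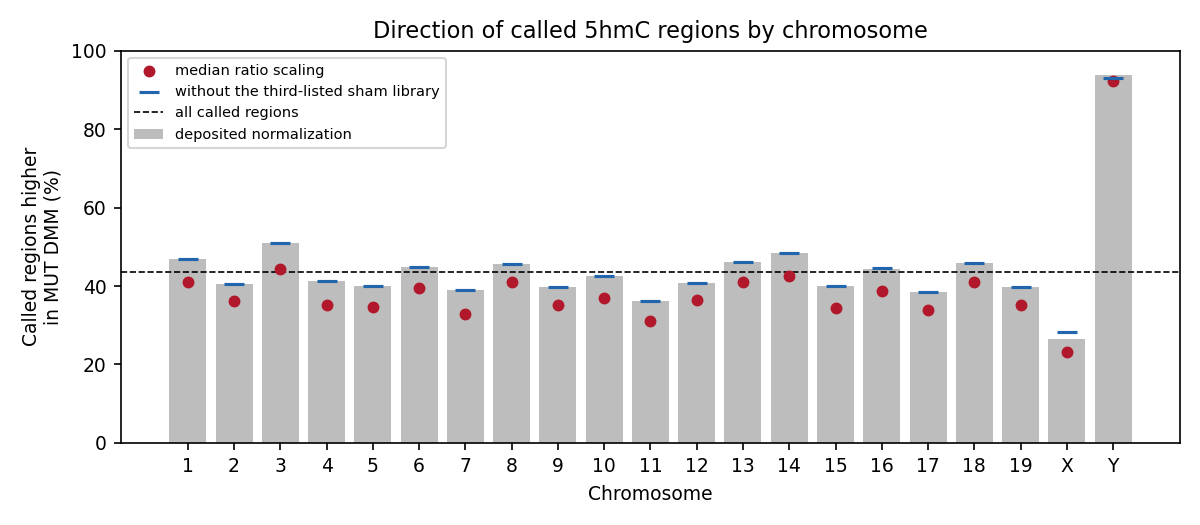
Share of called regions higher in MUT DMM (vertical axis, percent) on each chromosome (horizontal axis), as bars for the deposited normalization, points for median ratio scaling and dashes for the comparison without the third-listed sham library. The dashed line is the share over all called regions, 43.5%; chromosome Y stood at 93.9% and X at 26.5%.

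**Figure D3:**
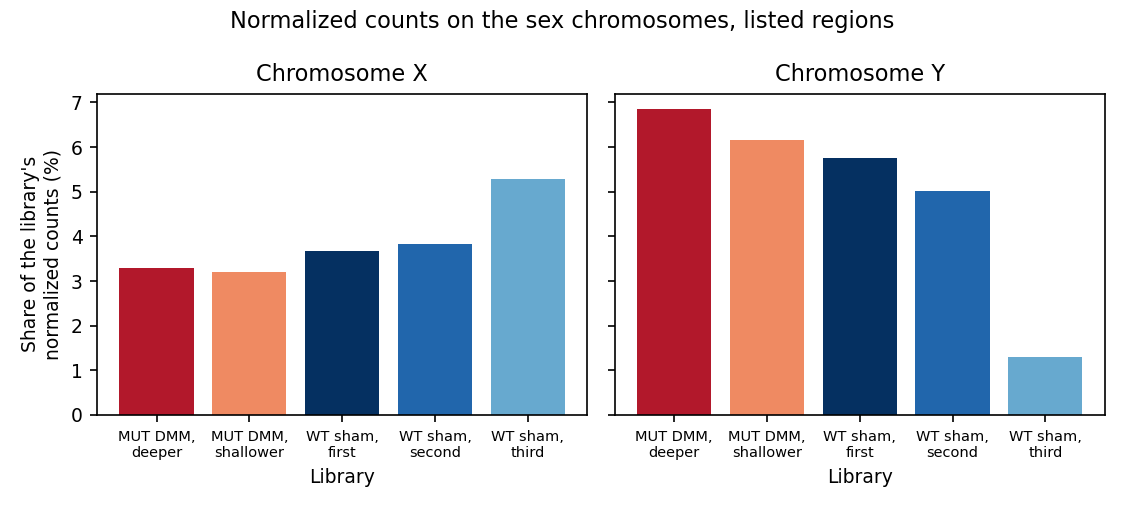
Share of each library's normalized counts in listed regions that lay on chromosome X (left) and chromosome Y (right), in percent, with 1 bar per library. The third-listed WT sham library had 1.29% on Y and 5.29% on X, outside the range of the other 4 libraries on both.

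Within chromosomes the direction changed over a few megabases. Over 546 bins of 5 Mb with at least 40 called regions, the median share of higher regions was 44.8%. The 5 bins with the highest shares all lay on Y, and 4 of the 5 lowest on X, led by X from 30 to 35 Mb with 19 higher and 204 lower regions (8.52% higher). Among autosomal bins the lowest were the end of chromosome 11 from 120 Mb (10.5%), chromosome 2 from 30 to 35 Mb (16.5%) and chromosome 5 from 110 to 115 Mb (18.2%). The highest were chromosome 14 from 80 to 85 Mb (80.0%) and chromosome 3 from 70 to 75 Mb (76.9%). Chromosome 8 held both kinds. From 85 to 90, 90 to 95 and 95 to 100 Mb it was 61.5%, 62.7% and 71.4% higher, and limma called 98, 115 and 36 regions higher in these bins, where the median bin had 10. Without the third-listed sham library these counts were 32, 30 and 14, and the median bin had 2. From 120 to 125 Mb the same chromosome was 18.3% higher, with 53 higher and 236 lower regions.

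The strongest single increases lay in that stretch of chromosome 8. Of the 10 higher regions in gene bodies with the largest log2 difference, no overlap between groups and at least 5 reads in each mutant library, 8 were on chromosome 8 and 2 on chromosome 2. In Fto, an RNA demethylase of the same dioxygenase superfamily as the TET enzymes, a region at chr8:91416461-91417020 read 19.2 and 47.2 normalized counts in the mutant and 0, 0 and 0.55 in the sham. In Zfp791, a zinc finger gene, a region at chr8:85112921-85113300 read 33.1 and 47.2 against 0.53, 1.16 and 0. In Chd9, a chromatin remodeller, a region at chr8:90884441-90884940 read 39.0 and 47.2 against 2.65, 1.16 and 4.99. Ces1a (a carboxylesterase) and Adgrg5 (an adhesion G protein-coupled receptor), also among the 10, had mutant means of 92.8 ± 15.7 and 43.1 ± 5.81 (SD, n = 2). Their sham means were 10.8 ± 7.68 and 4.55 ± 1.33 (SD, n = 3). Non-overlap was a condition of entry and the regions were picked for large differences, so the p values below are no separate test. Mbd5 on chromosome 2, which encodes a methyl-CpG-binding domain protein, read 43.4 and 56.7 against 7.42, 2.32 and 2.50. limma's log2 difference was 4.75 ± 0.57 (SE) for Fto, 4.77 ± 0.59 for Zfp791, 3.60 ± 0.66 for Chd9 and 3.46 ± 0.64 for Mbd5. The adjusted p values of these 4, by limma, were 0.00207, 0.00217, 0.00771 and 0.00834, and without the third-listed sham library 0.021, 0.03, 0.0309 and 0.0361.

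The largest decreases were often carried by 1 sham library. In Cryba4, a lens crystallin, a region at chr5:112262201-112262580 read 0.74 and 0 in the mutant, and 237 in the first-listed sham library against 9.26 and 12.5 in the other 2. In Cnot4, an E3 ligase of the CCR4-NOT complex, the first-listed sham library read 319 and the others 6.95 and 15.8. Of the 1341 regions in which this library stood above the other shams, 1276 were called lower, and 235 of these turned higher when it was left out. Csmd2 and Phlpp1 had the reverse pattern: their regions read 7.42 and 3.18 in the first-listed sham library but 60.2 and 132 in the second and 69.6 and 94.9 in the third, with at most 1.47 in a mutant library. A region of the immunoglobulin heavy chain locus Igh, at chr12:115283341-115283740, was at 0 in both mutant libraries and at 62.0, 28.9 and 38.8 in the sham, and limma's adjusted p for it was 0.00203.

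Long genes and the rearranging immune receptor loci held the most regions. The T cell receptor alpha locus Tcra had 74 higher and 21 lower called regions, and the immunoglobulin kappa locus Igk had 52 and 16. Igh went the other way, with 32 higher and 151 lower. limma called 15 regions higher and 12 lower in Tcra, 10 and 11 in Igk, and 5 and 85 in Igh. These loci rearrange in lymphocytes; the levels of blood cell markers are given with the other marker lists. Fto held 34 higher and 22 lower regions, and limma called 25 higher and 15 lower. The higher region at chr8:91654181-91654580 read 30.9 and 18.9 against 2.65, 3.47 and 1.94. Its limma adjusted p was 0.0132, and 0.0992 without the third-listed sham library. The lower one at chr8:91445341-91445620 read 15.5 and 28.3 against 48.8, 54.4 and 42.7, and limma's adjusted p of 0.0533 missed the threshold. The cell surface protein genes Ptprd (26 higher, 7 lower), Tenm3 (23 and 12), Lrp1b (19 and 7), Pcdh15 (19 and 4) and Cntnap2 (18 and 10), all very long, had more higher than lower called regions, but limma called more of their regions lower than higher, 6 and 5 in Ptprd, 9 and 4 in Tenm3, 5 and 3 in Lrp1b, 3 and 1 in Pcdh15 and 9 and 3 in Cntnap2. Grid1, of 763385 bases, held 19 higher and 7 lower called regions, and limma called 6 higher and 6 lower. At chr2:42050721-42051320 in Lrp1b the mutant libraries read 555 and 614 and the sham libraries 344, 348 and 399, a limma difference of 0.68 ± 0.14 (SE) with an adjusted p of 0.011, or 0.0278 without the third-listed sham library. The most lower regions outside Igh lay in Gse1 (34 lower, 3 higher), the long noncoding RNA Snhg14 (30 and 7), the transcription factor gene Camta1 (29 and 10), Wwox (29 and 13), Ptprn2 (28 and 13), Foxn3 (26 and 5), Cmip (24 and 1) and Nav2 (23 and 5). In Snhg14, at chr7:59750601-59750880, the mutant libraries read 0.74 and 0 and the sham libraries 20.2, 17.4 and 16.1 (limma adjusted p = 0.00414, and 0.0309 without the third-listed sham library).

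**Figure D4:**
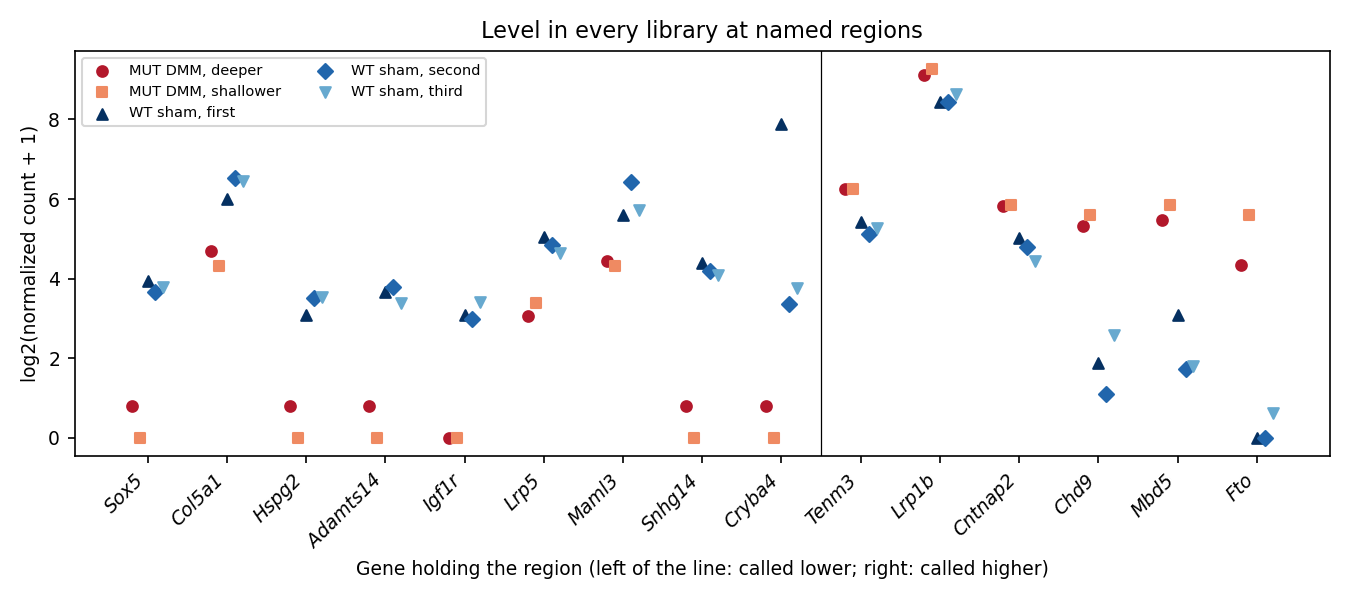
Level of every library at 15 named regions, as log2(normalized count + 1) on the vertical axis, with the gene holding each region on the horizontal axis. Regions left of the line were called lower and those right of it higher; at Cryba4 the first-listed WT sham library stood at 237 normalized counts, far above the other 2.

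The Tet genes themselves held regions of both directions. Within 5 kb of Tet1 there were 4 called regions, all lower, 3 of them in the gene body. The strongest, at chr10:62890721-62890960 beside the gene, read 0 in both mutant libraries and 11.1, 11.6 and 3.33 in the sham (limma difference -3.12 ± 0.59, SE; adjusted p = 0.00861). In the gene body the region with the highest level, at chr10:62866021-62866260, read 72.9 and 104 against 110, 138 and 109, and limma's adjusted p of 0.172 missed the threshold. DNA of Tet1 was thus still read in the mutant libraries, and since the extent of the mutation is not described in the sources used here, these regions do not check the genotype. Tet2 held 3 higher and 2 lower regions, or 2 and 3 under median ratio scaling. Tet3 held 1 higher and 4 lower regions in its body, of which the one at chr6:83410281-83410500 read 0.74 and 0 against 6.36, 13.9 and 8.04 (limma adjusted p = 0.00905, and 0.0276 without the third-listed sham library). Over the 25 genes of the DNA methylation machinery, 16 held a lower region (64.0%, against 40% of all protein-coding genes) and 7 a higher one (28.0%, against 30.6%). Their median length was 27864 bases against 17169 over all protein-coding genes, and a longer gene can hold more regions. The de novo methyltransferase gene Dnmt3a held 5 lower and 3 higher ones; at chr12:3881521-3881800 it read 0 in both mutant libraries against 5.83, 5.79 and 8.04.

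Genes of the cartilage matrix were mostly on the lower side. Of 34 such genes 22 held at least 1 lower region and 12 at least 1 higher region, 64.7% and 35.3% against the same 40% and 30.6%. These genes too were longer, with a median of 26140 bases against 17169 over all protein-coding genes. Of the 90 called regions in them 73 were lower (81.1%, against 63.2% over all protein-coding genes), and limma called 44 lower and 1 higher. Over its called regions the matrix list summed to 1878 and 1993 normalized counts in the mutant libraries. The sham libraries summed to 2748, 2797 and 2415, so the groups did not overlap. These regions were selected as different and most were lower, so the sums are no separate check. Over all listed regions the mutant libraries summed to more, 2.52e+06 and 2.85e+06 against 2.50e+06, 2.47e+06 and 2.18e+06. The most regions lay in 2 long genes of glycosaminoglycan synthesis, of 211465 and 286652 bases against a list median of 26140: Chst11, a sulfotransferase, held 15 lower and 3 higher regions and Xylt1, which starts the sugar chain, 13 and 1. Fibronectin (Fn1) held 7 lower regions and perlecan (Hspg2) 6, with no higher one in either. A region of Hspg2 at chr4:137551461-137551740 read 0.74 and 0 against 7.42, 10.4 and 10.5, a limma difference of -2.97 ± 0.50 (SE) with an adjusted p of 0.00655, or 0.0181 without the third-listed sham library. The type II collagen gene Col2a1 held 4 lower and 1 higher region, of which 1 lower region passed limma. Aggrecan (Acan) held only 1 called region, which was higher, and 8 genes of the list, among them Prg4 (lubricin), held none.

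Hypertrophy and mineralisation genes also held mostly lower regions. Of 30 genes 20 held a lower and 8 a higher region (66.7% and 26.7%, against 40% and 30.6% of all protein-coding genes), and 56 of 69 regions were lower (81.2%). Sik3, a kinase that acts on chondrocyte hypertrophy through class IIa histone deacetylases, held 12 lower and 3 higher regions. Alpl, the alkaline phosphatase of mineralising cells, and Ank, a pyrophosphate transporter, held 6 lower regions each, with 1 higher one in Alpl. In Alpl the region at chr4:137773301-137773580 read 0 in both mutant libraries and 5.83, 17.4 and 16.6 in the sham (limma adjusted p = 0.00648). Of the matrix proteases and their inhibitors, 18 of 35 genes held a lower and 20 a higher region, and 59.2% of their 98 regions were lower, below the 63.2% of all protein-coding genes. Adamts14, a procollagen peptidase, read 0.74 and 0 at chr10:61207301-61207580 against 11.7, 12.7 and 9.43. The aggrecanase gene Adamts5 held 2 regions, both higher, and Adamts4 held 1, which was lower; Mmp13, the main collagenase of osteoarthritic cartilage, held none.

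**Figure D5:**
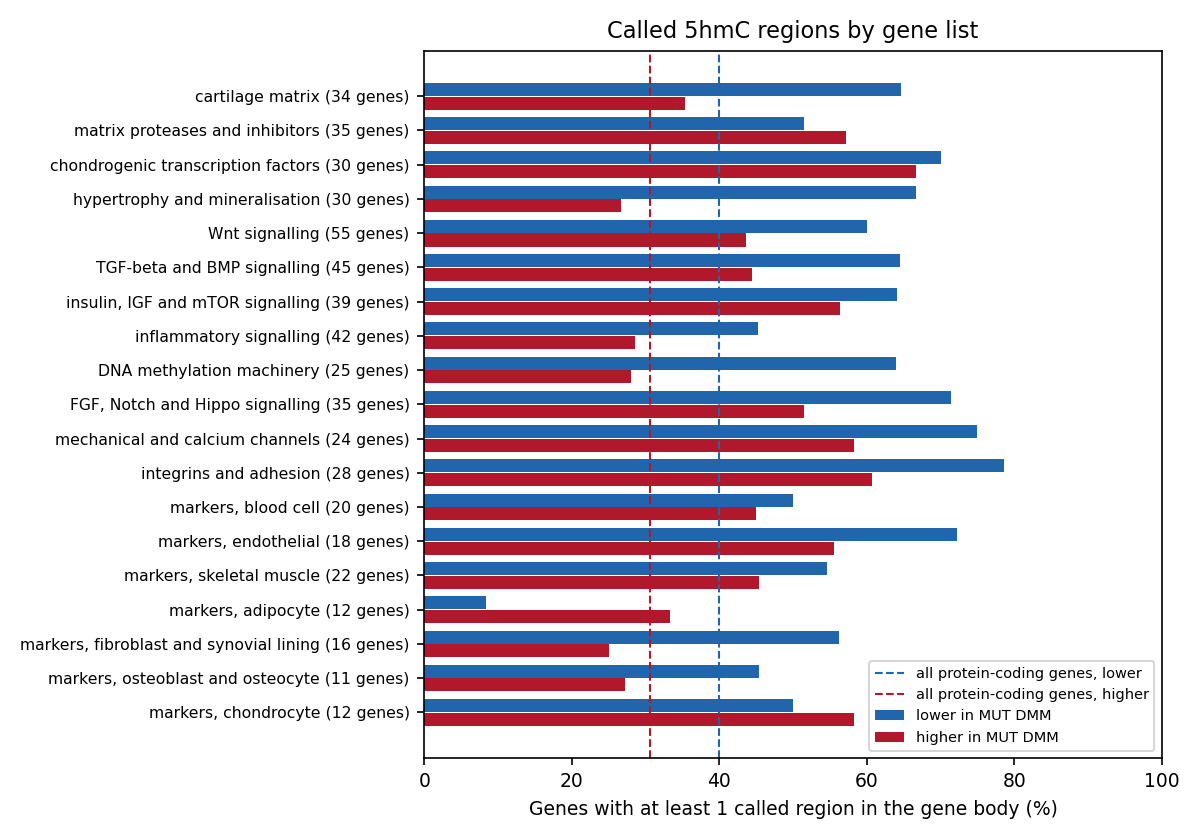
Share of genes of each list (vertical axis) with at least 1 called region in the gene body (horizontal axis, percent), in blue for regions lower and in red for regions higher in MUT DMM. Dashed lines give the shares over all protein-coding genes, 40% lower and 30.6% higher; the cartilage matrix list had 64.7% and 35.3%.

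Transcription factor genes of the chondrocyte lineage held many regions of both kinds. Of 30 genes 21 held a lower and 20 a higher region (70.0% and 66.7%, against 40% and 30.6% of all protein-coding genes), with 130 regions lower and 53 higher (71.0% lower, against 63.2%). Sox5, which with Sox6 and Sox9 drives cartilage formation, held 22 lower and 5 higher regions. Its region at chr6:143886421-143886700 read 0.74 and 0 against 14.3, 11.6 and 12.8 (limma difference -3.39 ± 0.54, SE; adjusted p = 0.00541, and 0.0257 without the third-listed sham library). Sox6 had 7 of each, or 5 higher and 9 lower under median ratio scaling. Nuclear factor I genes differed among themselves, with 16 lower and 3 higher regions in Nfia, 12 and 3 in Nfix, 8 and 0 in Nfic, and 4 and 6 in Nfib, which had 5 of each under that scaling. Runx2, the factor of hypertrophy and bone, held 6 higher and 3 lower regions, while Runx1 (7 lower, 1 higher) and Runx3 (6 lower) were on the other side. The calcineurin-responsive factors Nfatc1 and Nfatc2 held 9 lower regions each and no higher one. Summed over its called regions the list overlapped between groups, at 4797 and 5791 normalized counts in the mutant against 5917, 6286 and 5053. These genes are long, with a median of 80660 bases against 17169 over all protein-coding genes, and a longer gene can hold more regions of either kind.

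In the 5 lists of signalling genes the share of lower regions, beside 63.2% over all protein-coding genes, was 74.0% of 131 regions for Wnt signalling, 72.2% of 115 for FGF, Notch and Hippo signalling, 71.9% of 57 for inflammatory signalling, 69.1% of 123 for TGF-beta and BMP signalling and 66.0% of 100, near that share, for insulin, IGF and mTOR signalling. Summed levels here too are over called regions, which were selected as different, and are no separate check. The summed levels of the inflammatory list overlapped between groups, at 1121 and 1502 normalized counts in the mutant against 1431, 1659 and 1348 in the sham, as did those of the FGF, Notch and Hippo list, at 2673 and 3269 against 2981, 3086 and 2829. Those of the Wnt list did not, at 1866 and 2437 against 3008, 2975 and 2681, nor did those of the TGF-beta and BMP list, at 2985 and 2948 against 3300, 3500 and 3339, or of the insulin, IGF and mTOR list, at 1917 and 2258 against 2478, 2673 and 2426. Among Wnt receptors, Lrp5 held 8 lower regions, Ror2 8 and Lrp6 6, with no higher one. Others were mixed: Ror1 held 4 lower and 4 higher regions, Ryk 3 and 1, and Fzd3 2 and 1. Fzd1 and Fzd5 held 1 region each, which was higher, and Fzd6 held 1, which was lower. The Lrp5 region at chr19:3610741-3611120 held reads in every library, 7.36 and 9.45 in the mutant against 31.8, 27.8 and 23.9, and its limma difference of -1.62 ± 0.43 (SE) had an adjusted p of 0.028; without the third-listed sham library that p was 0.106. Among Wnt effectors Lef1 held 8 lower and 3 higher regions. In the TGF-beta family Smad3 held 8 lower and 1 higher region and Smad6, an inhibitor, 6 lower ones, whereas Inhba, a subunit of activin, held 4 regions that were all higher (3 of them under median ratio scaling) and the BMP receptor gene Acvr1 held 5 higher and 3 lower. The receptor gene Igf1r held 11 lower and 2 higher regions, and at chr7:67999421-67999800 it read 0 in both mutant libraries against 7.42, 6.95 and 9.71 (limma adjusted p = 0.00203). A single read of the shallower mutant library is worth 9.45 normalized counts, so its 0 tells little at that level. Ikbkb, the kinase that releases NF-kB, held 4 lower regions and Stat3 held 4. Maml3, a Notch coactivator, held 11 lower and 6 higher regions; at chr3:51949561-51950180 it read 20.6 and 18.9 against 47.2, 85.7 and 51.9 (limma adjusted p = 0.0224, and 0.0543 without the third-listed sham library).

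Genes of channels and of adhesion, most of them long, held 96 lower and 45 higher regions and 75 and 43 in turn. Their shares of lower regions were 68.1% and 63.6%, the second close to the 63.2% of all protein-coding genes. Among mechanosensitive channels Piezo1 held 12 lower and 2 higher regions and Trpv4 6 lower ones, while Piezo2 held 5 of each. The intracellular calcium release channels Itpr1 and Itpr2 held 12 lower regions each, with 3 and 2 higher. Cacna2d1, an auxiliary calcium channel subunit, held 6 regions that were all higher. Of the integrin genes Itgb5 held 7 lower and 2 higher regions and Itga9 8 and 5, and the cadherin gene Cdh13 held 19 and 6. The laminin gene Lama2 held 7 higher and 1 lower.

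Markers of other cell types that a cartilage sample can hold were read the same way, beside the 63.2% of lower regions over all protein-coding genes. Their summed levels are likewise over called regions only, so the selection of those regions bears on them. Fibroblast and synovial lining markers had the most one-sided regions, with 31 of 35 lower (88.6%) and summed levels of 305 and 189 normalized counts in the mutant libraries against 755, 762 and 667 in the sham. Col5a1, a fibril collagen gene, accounted for 14 of the lower and 1 of the 4 higher regions. Its region at chr2:27888061-27888540 held reads in every library, 25.04 and 18.9 in the mutant against 63.1, 91.5 and 87.1 in the sham, with a limma difference of -1.82 ± 0.33 (SE) and an adjusted p of 0.00745, or 0.0297 without the third-listed sham library. Pdgfra, Col1a1 and Thy1, defining genes of that list, held no called region. For endothelial markers 36 of 50 regions were lower (72.0%), with summed levels of 1093 and 1068 against 1501, 1363 and 1188. Blood cell markers had 29 of 47 lower (61.7%) and summed levels that overlapped, 1104 and 1275 against 1115, 1204 and 1021. Skeletal muscle markers had 35 of 63 lower (55.6%) and overlapping sums from 1748 to 2116 and from 1373 to 1825, and the myogenic factors Myod1 and Myog held no region. Adipocyte markers held only 5 regions, 4 of them higher. Osteoblast and osteocyte markers had 11 of 14 lower (78.6%), with overlapping sums of 197 and 293 against 345, 266 and 327. Chondrocyte markers had 37 of 55 lower (67.3%), near the share of all genes, with overlapping sums of 1334 and 1767 against 1336, 1381 and 1240. A change in the make-up of the tissue and a change of 5hmC within a cell type cannot be told apart in bulk DNA; the part of these cell types in the results was not tested.

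Distance from a start site moved with the direction. Of 4430 called regions within 1000 bases of a RefSeq start site 56.8% were higher in the mutant, of those at 1000 to 5000 bases 30.9%, at 5000 to 20000 bases 34.2%, at 20000 to 100000 bases 40.8%, and farther away 59.4%. The nearest class was also the one with the highest sham level, a median of 29.5 normalized counts against 10.1 to 11.6 in the others, and under median ratio scaling its share was 44.9%, so that lower regions became the more frequent there. Gene bodies held 46.3% of the higher and 59.4% of the lower regions.

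At promoters the 2 directions fell on different kinds of sequence. CCGG, searched for as these 4 letters, which read the same on both strands, was present in 52.8% of the 32851 promoter windows in the RefSeq table. A higher region covered at least 100 bases of 898 windows (2.73%), of which 96.9% held CCGG, with a median of 20 CG pairs. A lower region covered 442 windows (1.35%), of which 77.6% held CCGG, with a median of 8 CG pairs, where all windows had a median of 7. Read beside the sequences above, Abcc10 with its 17 CG pairs was of the CG-rich kind, and Dcpp3 and Eng were of the CG-poor kind, while Tpcn2 and Ttc8 had the reverse pairing. The regions over higher promoters were strongly read in both groups, with medians of 82.7 in the mutant and 48.7 in the sham, and those over lower promoters were not, with 1.11 and 12.3. Of the 771 regions over higher promoters 592 were still higher under median ratio scaling.

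Among the 514 genes of the lists, 376 had a promoter window in the RefSeq table, and 9 of these windows were covered by a higher and 3 by a lower region. These shares, 2.39% and 0.798%, were near or below the 2.73% and 1.35% of all windows, so the count says nothing particular of the lists. The higher ones were Adamts20, Foxa2, Ltbp1, Maml1, Mbd4, Notch4, Socs3, Sox6 and Stat3. Foxa2, a forkhead factor, read 135 and 246 normalized counts at chr2:148045061-148045540 in the mutant against 78.0, 102 and 95.4 (limma difference 0.99 ± 0.32, SE; adjusted p = 0.0459, and 0.0942 without the third-listed sham library). Mbd4, a glycosylase of DNA repair at methylated CpG sites, read 50.1 and 94.5 against 33.9, 35.9 and 24.97, and limma's adjusted p of 0.0634 missed the threshold. The Sox6 promoter region read 94.99 and 85.0 against 66.8, 66.0 and 59.1 (adjusted p = 0.119 by limma), and its direction turned under median ratio scaling, as did those of Adamts20 and Socs3. Stat3 read 70.0 and 85.0 against 43.0, 54.4 and 47.4 at its promoter, while its gene body held 4 lower regions. The lower ones were Ckm, Eng and Foxo1. For Foxo1, a factor of chondrocyte upkeep, the mutant read 34.6 and 18.9 and the sham 154, 38.2 and 33.6, so the groups overlapped.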

How the data were processed

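Libraries were prepared with the RRHP kit with 15 PCR cycles, per the labels' protocols, and HISAT2 2.1.0, Trim Galore 0.5.0, SAMtools, bedtools and mm10 are named in the submitters' processing notes. The authors deposited, per region, joined normalized counts of each library (no scaling given in the sources used here), group means that are a signal, and p-values of windows and whole regions, per the file headers; regions are merged windows of 200 bases with a window p of at most 0.0001. From these, identical entries were counted once and reads recovered as multiples of each library's step (99.8855% to 99.9972% of values were whole within 0.02; PCR reads are not independent molecules). limma 3.58.1 (R 4.3.3; Benjamini-Hochberg over all 72486 regions) was fitted to log2(normalized count + 1) with an intensity trend after being tested on simulated data; no count model was fitted to these normalized, preselected values. The design text calls the replicates biological. RefSeq gene bounds assigned regions. Members, lists and the rule for named genes (the Tet genes, the genes with the most regions, the largest non-overlapping differences, leading members of each list, the smallest authors' p) were chosen with earlier results of these data known; Usp9y, Ddx3y and genes named for their counts only were chosen after their values were seen. Alternatives were pseudocounts, filters, thresholds, median ratio scaling and leaving out libraries. The other tables and the background control were not used here.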

Additional observations from a re-analysis of the deposited data

How the results depend on the processing

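No paired analysis was possible by replicate number, because the joined columns carry no replicate numbers. The groups differ in genotype, so no mouse was in both and no pairing within animals was lost. The limma count of higher regions was 11883 with all 3 deposited entries and 3597 under median ratio scaling, and ranged from 1082 to 20545 when 1 library was left out, where leaving out a mutant library leaves 1 that is assumed to vary like the sham libraries; the cause was not tested. Regions higher with no overlap numbered 11101 under median ratio scaling. The share of higher regions was 38.4% under that scaling over all chromosomes, 23.2% on X, 92.2% on Y, 31.1% on chromosome 11 and 44.5% on chromosome 3. With a larger group mean of at least 5 it was 46.1% over all chromosomes, 28.9% on X, 38.5% on chromosome 11 and 53.8% on chromosome 3. Leaving out 1 library gave 42.0% to 44.0% over all chromosomes and 48.9% to 51.4% on chromosome 3. Of 38 counts of list genes with a called region, 36 stayed within 1.5 times with 5 kb added on either side of the gene, where fibroblast markers with a higher region went from 4 to 8 and adipocyte markers with a lower one from 1 to 2. All 38 did so under median ratio scaling and without the first- or the third-listed sham library, settings added after seeing the data. Depth limits what the lower regions can show, since a 0 in the shallower mutant library allows 28.3 normalized counts.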
